A study of Mus musculus with 26 samples.

Results

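The 9 genes described here are Mbp, Mag, Mog, Cnp, Mal, Mobp, Cldn11, Ugt8a and Opalin, a named set of myelin protein and lipid genes among the 24358 gene entries counted in Pdgfra/GFP+ cells of the mouse central nervous system. They were taken by symbol in every library, and all 9 had an entry. Single cells were captured on Fluidigm C1 chips and sequenced by STRT-seq, which counts messenger RNA molecules through molecular identifiers at the 5′ end. 26 chips were deposited, and the chip was the replicate. In heterozygous Pdgfra-H2BGFP knock-in mice, a nuclear GFP is driven by the Pdgfra locus. From these mice came 6 chips of E13.5 brain, 3 of E13.5 spinal cord, 2 of P7 brain and 5 of P7 spinal cord. In Pdgfra-cre-ERT/RCE mice, tamoxifen activates a recombinase made in Pdgfra+ cells, and a GFP reporter then stays on in their progeny. P7 brain of these mice gave 6 chips after tamoxifen at E12.5 (txE12.5) and 3 after tamoxifen at P3 (txP3). All cells were sorted for GFP, and H2B-GFP outlasts Pdgfra transcription into early oligodendrocyte differentiation, so the sort can hold cells past the precursor stage. The remaining chip, chip 9, has conflicting annotation, with P7 spinal cord in its title and E13.5 in its file annotation, and entered no comparison.

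Of 2496 wells, 1515 held at least 1000 molecules, 103 of these were set aside as doublets, and 1412 cells remained, 844 of them from the grouped P7 chips. The chips held 56371 to 728180 molecules, with a median of 179312, and no 2 of the 1412 cells had the same counts. Cells were clustered without the 9 genes and without the other myelin and lipid genes listed for this report. Clusters were named from markers as OPC-like (oligodendrocyte precursor cells), COP-like (committed precursors) and NFOL-like (newly formed oligodendrocytes). The 844 P7 cells held 509 OPC-like cells, of which 106 were cycling, 151 COP-like and 91 NFOL-like cells. The E13.5 chips held no COP-like or NFOL-like cell, 1 cell in an OPC-like cluster and 12 in the cycling cluster, and stage values use P7 cells only. Chip 23, labelled P7 spinal cord, stood apart: it held 14 cells, 13 of them VLMC-like (vascular and leptomeningeal cells), and none of the oligodendrocyte lineage. Results that use all its cells are therefore given with and without it. Chip 9 also held no lineage cells (44 VLMC-like, 27 neuron-like and 5 pericyte-like cells), so no stage value below depends on its group. At P7, region, reporter line and tracing group each go with a different experiment number in the file headers, so these cannot be told apart, and the same holds for age. The labels do not say that chips are separate animals, so p-values measure only the spread between chips.

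Myelin is a stack of oligodendrocyte membrane wrapped around an axon. Mbp encodes myelin basic protein, which holds the cytoplasmic faces of the membrane together, and Cnp encodes the enzyme CNPase, which keeps cytoplasmic channels open. Ugt8a makes galactosylceramide, the main glycolipid of myelin, and Mal encodes a lipid raft protein of membrane sorting. Cldn11 forms the tight junctions between the layers, Mag faces the axon, and Mog and Opalin sit on the surface of the sheath. Mobp is a small basic protein of compact myelin. In the lineage, precursors commit and leave the cycle, and these genes rise before any sheath is wrapped.

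In the GRCm38 assembly Cnp spans chr11:100574904-100591729 on the plus strand, Ugt8a chr3:125865271-125938619 on the minus strand, Cldn11 chr3:31149920-31164324 (plus) and Mag chr7:30899176-30914873 (minus). Mog spans chr17:37010743-37023398 (minus), Mobp chr9:120149707-120181484 (plus), Mal chr2:127633226-127656695 (minus) and Opalin chr19:41061710-41077113 (minus).

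Promoter windows of 250 bases before the transcription start were matched for 8 of the 9 genes in RefSeq annotation of GRCm38.p6. Of the 5 windows below, those of Cnp and Ugt8a are shown because these members had the highest relative level before the newly formed stage. Those of Mag, Mog and Mobp are shown as examples of members with most P7 molecules in that stage (89.5%, 90.6% and 85.2%). Opalin (100%) and Mal (94.5%) had higher shares there, and their windows are not shown. Capitals mark matches to letters of Sox factors (ACAATG or ACAAAG) and of Myrf (CTGGCAC or CTGGTAC) on either strand, the families of Sox10 and Myrf that control myelin genes.
Cnp: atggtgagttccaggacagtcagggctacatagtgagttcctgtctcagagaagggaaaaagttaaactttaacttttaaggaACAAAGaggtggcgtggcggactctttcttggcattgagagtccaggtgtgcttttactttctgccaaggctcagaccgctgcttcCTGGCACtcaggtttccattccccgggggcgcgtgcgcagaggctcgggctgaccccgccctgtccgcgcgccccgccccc
Ugt8a: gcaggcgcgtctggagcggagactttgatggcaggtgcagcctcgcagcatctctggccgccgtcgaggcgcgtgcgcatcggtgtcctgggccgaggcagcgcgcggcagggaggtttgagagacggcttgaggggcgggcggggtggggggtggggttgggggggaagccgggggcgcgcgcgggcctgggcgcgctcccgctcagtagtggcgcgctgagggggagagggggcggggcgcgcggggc
Mag: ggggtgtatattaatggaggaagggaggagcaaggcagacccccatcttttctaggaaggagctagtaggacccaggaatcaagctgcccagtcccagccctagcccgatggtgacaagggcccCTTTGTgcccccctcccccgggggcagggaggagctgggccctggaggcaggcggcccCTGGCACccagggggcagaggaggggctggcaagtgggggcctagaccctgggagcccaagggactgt
Mog: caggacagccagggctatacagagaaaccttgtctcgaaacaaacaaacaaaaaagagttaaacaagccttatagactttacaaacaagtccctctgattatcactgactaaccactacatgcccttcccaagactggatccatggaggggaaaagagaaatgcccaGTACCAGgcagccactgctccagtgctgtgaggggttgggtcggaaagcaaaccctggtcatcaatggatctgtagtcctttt
Mobp: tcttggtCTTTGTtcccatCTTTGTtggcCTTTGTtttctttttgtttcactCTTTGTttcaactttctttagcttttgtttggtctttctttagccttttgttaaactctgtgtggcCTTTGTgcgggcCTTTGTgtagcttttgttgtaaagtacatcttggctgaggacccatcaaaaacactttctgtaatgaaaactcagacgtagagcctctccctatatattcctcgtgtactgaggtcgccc

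These windows are chr11:100574689-100574938 (plus) for Cnp, chr3:125938653-125938902 (minus) for Ugt8a, chr7:30914864-30915113 (minus) for Mag, chr17:37023399-37023648 (minus) for Mog and chr9:120149492-120149741 (plus) for Mobp. Sox letters were found in 4 of 8 members (Mag, Cnp, Mobp and Opalin) and in 25.2% of all 32851 windows of the same length. Myrf letters were found in 3 of 8 (Mag, Mog and Cnp) and in 5.93% of all windows. The windows of Mal, Cldn11 and Ugt8a held neither. A member was counted if any of its windows matched, while the shares are per window, and Mag had more than 1 window. Counted from the transcription start, the Sox and Myrf matches of Cnp began at -167 and -81, and those of the Mag window shown at -126 and -68. In another Mag window they began at -67 and -9, and the Mag window chr7:30914322-30914571 held neither. The Mobp window held 6 Sox matches, the nearest to the start at -120, and the Mog window 1 Myrf match at -83. Letters of the GC box (GGGCGG) were found in Cnp and Ugt8a and in 32.7% of all windows, and Ugt8a was 76.8% G and C against a median of 52.4% over all windows. Letters of an E-box (CAGCTG) and of the TATA box (TATAAA) were in 0 of 8 members and in 13.0% and 12.4% of all windows. A match is a description of letters and not of binding.

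The first question was when each gene comes on across the lineage. All 9 genes were highest in NFOL-like cells when cells of the P7 chips were pooled, but they differed in how much was already present in the stages before. Levels are given in CPM, a gene's molecules as a share of all molecules of the same cells on the usual scale of that unit. Since stages come from clusters of the same cells, the differences between stages are a description with no test. Mbp was at 291 CPM in OPC-like, 1487 in COP-like and 9573 in NFOL-like cells. Cnp was at 276, 1423 and 3105 CPM, and Ugt8a at 264, 470 and 2142 CPM. As a ratio, the step of Cnp was larger from the precursor to the committed stage than after it, and that of Ugt8a was larger after it. Cldn11 was at 32.9, 191 and 1949 CPM and Mag at 18.4, 84.7 and 1436 CPM. The other genes were low before the NFOL-like stage, with Mog at 5.26, 13.3 and 306 CPM, Mal at 1.97, 9.97 and 608 CPM, and Mobp at 19.7, 11.6 and 444 CPM. Opalin had 0 molecules in OPC-like and COP-like cells and 27.6 CPM in NFOL-like cells. With 0 of 509 and 0 of 151 cells, a share of cells with an Opalin molecule of up to 0.589% and 1.99% is allowed. Intervals and limits cover counting error only.

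The shares of cells with at least 1 molecule followed the same stages. Mbp was found in 35.0% of OPC-like cells (95% Wilson interval 31.0 to 39.2), 77.5% of COP-like cells (70.2 to 83.4) and all 91 NFOL-like cells. Cnp was found in 40.9%, 84.1% and 96.7%, and Ugt8a in 39.5%, 64.2% and 91.2%. Mag was found in 2.36%, 17.2% and 82.4% of cells, and Mog in 0.589%, 3.97% and 25.3%. Cells of the later stages held more molecules, with medians of 2644, 3681 and 5039. When each cell was thinned to 1000 molecules, the shares for Mbp were 18.6%, 53.9% and 98.6%, in the same order. For comparison, the 57 VLMC-like cells of P7 brain, a type that makes no myelin, held Mbp in 29.8% of cells at a median depth of 2938 molecules, and Cnp in 21.1%. Their levels were 152 and 86.7 CPM, below the pooled 291 and 276 CPM of OPC-like cells. Mbp was in 32.6% of brain OPC-like cells (median depth 2603 molecules) and in 48.1% of those of spinal cord (3222 molecules), and at 1000 molecules in 16.9% and 27.97%, against 14.2% of the VLMC-like cells. Free RNA and Mbp made by the VLMC-like cells themselves cannot be told apart here, so no level of background for Mbp was set. Ugt8a was at 5.42 CPM in those VLMC-like cells and in 1.75% of them, against 264 CPM and 39.5% in OPC-like cells, so its precursor level lay far above it. Cldn11 was at 195 CPM in the same VLMC-like cells, above its level in OPC-like cells.

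The stage values held in single chips for the genes with enough molecules. In the 8 P7 chips with at least 5 cells of each stage (4 of spinal cord and 4 of brain), Cnp ranged from 202 to 562 CPM in OPC-like cells with a median of 426. In COP-like cells it ranged from 1004 to 2073 CPM, and in NFOL-like cells from 2159 to 3445 CPM with a median of 3042. The 3 stages did not overlap for Cnp. Mbp ranged from 131 to 828 CPM (median 509), from 459 to 2798 CPM (median 1579) and from 4528 to 12129 CPM (median 8252). Its precursor and committed ranges overlapped between chips, but within every chip the COP-like level was the higher. Mag ranged from 0 to 78.1 CPM, from 0 to 179 CPM and from 269 to 3717 CPM (medians 28.8, 67.9 and 1029). The COP-like level was above the OPC-like level in 8 of 8 chips for Cnp, Mbp and Cldn11, in 7 of 8 for Ugt8a and in 5 of 8 for Mag. The NFOL-like level was above the COP-like level in 8 of 8 chips for all 5 genes. Mobp, Mal and Opalin had a median of 0 CPM in NFOL-like cells over the 8 chips, so their pooled levels come from few chips. By the medians over these chips, 6 of the 9 members rose at each step (the sixth was Mog, whose COP-like total was 8 molecules). Over all chips with at least 5 cells of a stage, 5 of the 6 members with at least 50 CPM in a stage rose at each step, against 17.8% of the 5066 genes at that level.

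**Figure D1:**
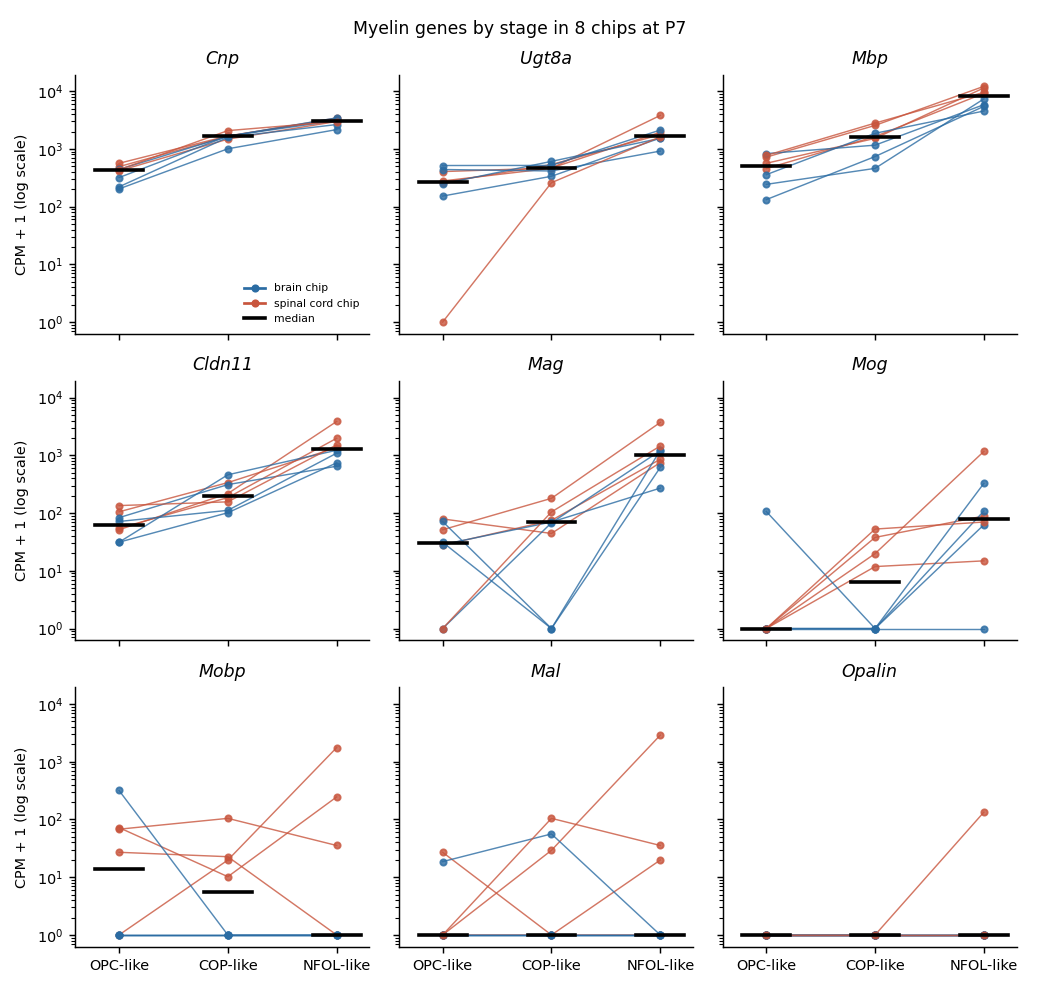
Level of each gene (CPM + 1, log axis) in OPC-like, COP-like and NFOL-like cells of the 8 P7 chips with at least 5 cells of each stage. Each line is 1 chip, blue for brain and red for spinal cord, and black bars are medians. Cnp is already between 1004 and 2073 CPM in COP-like cells, while Mag, Mog, Mobp, Mal and Opalin are at or near 0 in many chips before the NFOL-like stage.

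To order the onset without comparing levels between genes, the COP-like level of each gene was taken as a percent of its own NFOL-like level in the same chip. Cnp stood first at a median of 50.3% (46.5 to 69.9, n = 8 chips), followed by Ugt8a at 24.2% (12.1 to 45.2) and Mbp at 18.9% (6.25 to 41.1). Cldn11 followed at 11.9% (5.61 to 48.0) and Mag at 5.68% (0 to 25.6). Cnp was above Ugt8a in 8 of 8 chips and Cldn11 above Mag in 8 of 8, but Ugt8a was above Mbp in 6 and Mbp above Cldn11 in only 4 of 8, so the places of Ugt8a, Mbp and Cldn11 do not differ beyond the spread between chips. In the 4 brain chips Cldn11 stood at 25.5% and Mbp at 16.7%, and in the 4 spinal cord chips at 9.79% and 19.5%. The OPC-like level was 15.4% of the NFOL-like level for Ugt8a, 13.4% for Cnp, 5.45% for Mbp, 5.29% for Cldn11 and 2.80% for Mag. Ugt8a and Cnp thus had the highest relative levels in precursors, and by the committed stage Cnp stood the higher. Mog, Mobp, Mal and Opalin had 8, 7, 6 and 0 molecules in all COP-like cells, too few to place.

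A similar order was seen when the 645 lineage cells outside the cycling cluster were ranked along a diffusion pseudotime built without the 9 genes. The median rank was 33.5% of the way for OPC-like, 72.6% for COP-like and 92.9% for NFOL-like cells. Cnp reached 50% of its highest level at 78.4% of the ranked cells, Ugt8a at 87.3%, Mbp at 87.7% and Mog at 88.7%. Cldn11 followed at 88.9%, Mag at 89.1%, Mobp at 89.7%, Mal at 89.9% and Opalin at 90%. The cells were cut into 10 equal bins by rank. Apart from Cnp, all crossed between bins 9 and 10, so the order after Cnp is not resolved. Spinal cord cells made up 1.54% of bin 1 and 70.3% of bin 10. In spinal cord cells alone Cnp crossed at 51.4%, Mbp at 74.7%, Ugt8a at 84.0% and Mag at 89.1%. In brain cells alone Cnp crossed at 83.8%, Ugt8a at 87.9%, Mbp at 88.8% and Mag at 89.3%. Of Cnp, Mbp, Ugt8a and Mag, Cnp came first and Mag last in both regions. In brain cells Mobp and Mog crossed before Cnp, at 70.0% and 72.9%, with 18 and 23 molecules in all.

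**Figure D2:**
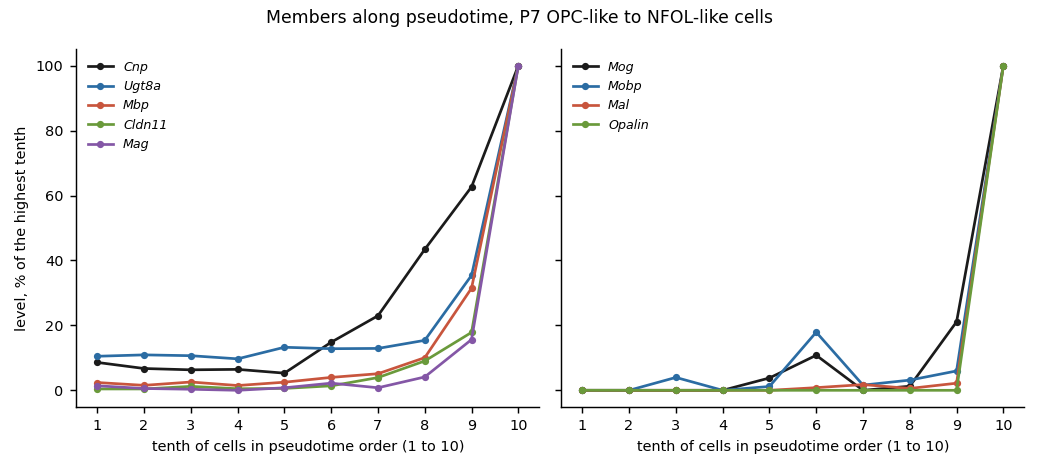
Level of each gene as a percent of its highest bin, over 10 equal bins of P7 lineage cells ranked from OPC-like to NFOL-like by diffusion pseudotime. Cnp climbs from bin 6 on and most other genes in bins 9 and 10, and the bump of Mobp at bin 6 comes with 1 OPC-like cell of chip 17.

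Within cells, the number of members found rose with the stage. OPC-like cells held a mean of 1.27 of the 9 genes, COP-like cells 2.93 and NFOL-like cells 5.02, and the median depth rose in the same order. At least 5 genes were found in 0.982%, 11.9% and 76.9% of these cells, against 0 of 71 VLMC-like cells at P7. Of the 26 COP-like cells with Mag, 24 also held Mbp, which was in 117 of all 151 COP-like cells, and 23 held Cnp, which was in 127. Of the 23 NFOL-like cells with Mog, 20 held Mag (87.0%), against 80.9% of the 68 without Mog. The cells with Mog were deeper, with a median of 7282 molecules against 4734, and at 1000 molecules Mag was in 44.4% and 46.9%. All 8 NFOL-like cells with Mobp held Mag, which was in 75 of all 91 NFOL-like cells. Some cells of the earlier stages held a molecule of a later gene and none of an earlier one. Mag was in only 26 of all 151 COP-like cells and Mbp in 178 of 509 OPC-like cells. A gene can go undetected at these depths, so these few cells do not decide the order. Of 6 COP-like cells with Mobp, 0 held Mag, and of 4 with Mal, 1 did. Of 12 OPC-like cells with Mag, 5 lacked Mbp, and of 3 with Mog, 2 lacked both Mbp and Cnp.

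A pair of NFOL-like cells from spinal cord chip 10 held all 9 genes and most of the molecules of the last ones. They had 13542 and 20610 molecules. Between them they held all 14 Opalin molecules of the series' P7 lineage cells, 303 of the 308 Mal molecules in NFOL-like cells (98.4%), 167 of 225 for Mobp (74.2%) and 106 of 155 for Mog (68.4%). They also held 309 of 728 Mag molecules (42.4%), but only 12.0% of Mbp and 11.1% of Cnp molecules. Without these 2 cells the NFOL-like level was 0 for Opalin, 10.6 CPM for Mal, 123 for Mobp, 104 for Mog and 886 for Mag. NFOL-like Mbp was 9035 CPM without them and Cnp 2959 CPM, close to the values with them. In the other NFOL-like cells of chip 10 there were 17 molecules of Mog, 18 of Mobp, 1 of Mal and 0 of Opalin. In the same way, 1 OPC-like cell of txE12.5 chip 17, with 2567 molecules, held 16 of the 30 Mobp molecules found in OPC-like cells, together with 32 molecules of Mbp, 12 of Cnp and 6 of Mog.

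The second question was how the genes stood at P7 against E13.5, over all cells of the Pdgfra-H2BGFP chips. In such sums, fewer cells of a type and less RNA per cell cannot be told apart. Cnp, Mbp, Ugt8a and Mag were higher at P7. Over the 9 E13.5 chips Mbp (GRCm38 chr18:82475146-82585637, plus strand) ranged from 0 to 26.0 CPM, against 713 and 1031 CPM in the P7 brain chips. The P7 spinal cord chips 10, 11, 12 and 26 held 5517, 5307, 3508 and 4039 CPM of Mbp, and chip 23 held 0. Apart from chip 23, every P7 chip lay above every E13.5 chip. With chip 23 no member was without overlap, as 3.12% of genes were (0.981% with P7 higher), and without chip 23 this share was 11.1% (6.51% with P7 higher). The log2 fold change of Mbp was 7.06 ± 0.74 (SE, adjusted p = 5.23e-07, edgeR's quasi-likelihood test with Benjamini-Hochberg adjustment, region as covariate). It was 7.29 ± 0.71 for Cnp (adjusted p = 1.68e-07) and 6.48 ± 0.73 for Ugt8a (1.03e-06) by the same test. Mag, with 0 molecules among 2203948 at E13.5 and 691 at P7, rose too (adjusted p = 0.000177), at least 383-fold in the pooled counts against a floor of 3 counts over the E13.5 group. 4 of the 5 members that passed the filter on low counts were called higher, in a comparison where 28.2% of 5506 genes were called and 14.2% were called higher. These 4, Mag, Cnp, Mbp and Ugt8a, had 0, 15, 33 and 16 molecules at E13.5. They passed the filter through the P7 chips, which fixed their direction, so the count is not support for the set. Mog, Mobp, Mal and Opalin did not pass the filter. At E13.5 they had 0, 0, 5 and 0 molecules, and at P7 148, 244, 317 and 14, which for Mog is at least 82.0-fold and for Mobp at least 135.2-fold. Chip 10 held 125 of the Mog, 187 of the Mobp, 307 of the Mal and all 14 of the Opalin molecules.

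Cldn11 was the exception among the tested members. It ranged from 32.3 to 698 CPM over the 6 E13.5 brain chips (median 105) and from 72.8 to 163 CPM over the 3 E13.5 spinal cord chips, which overlap the P7 brain values of 112 and 275 CPM. Its log2 fold change at P7 was 1.69 ± 0.68 (edgeR adjusted p = 0.0672), and 1.76 without chip 23 (adjusted p = 0.0250). In brain chips alone it was -0.02 and in spinal cord chips alone 2.73 (edgeR adjusted p = 0.00292), but the difference between regions was not tested. At E13.5, 284 of the 313 Cldn11 molecules (90.7%) lay in 201 VLMC-like cells. By chip, these cells held 133 to 968 CPM (median 263, n = 9), and the other cells 0 to 214 CPM (median 14.0). The VLMC-like level was the higher in each of the 9 chips. Mbp, by contrast, was at 7.52 CPM in the E13.5 VLMC-like cells. At P7, too, the 14 cells of chip 23, nearly all VLMC-like, held 603 CPM of Cldn11 and no molecule of Mbp, Cnp, Ugt8a or Mag. Levels of Cldn11 over all cells thus include molecules of VLMC-like cells.

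**Figure D3:**
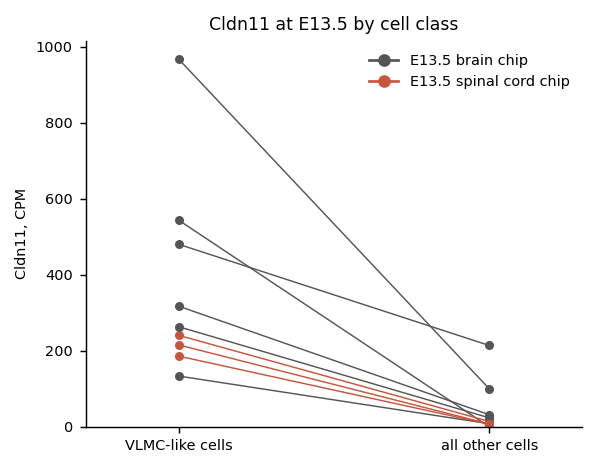
Cldn11 (CPM) in VLMC-like cells and in all other cells of each of the 9 E13.5 chips; lines join the values of 1 chip, grey for brain and red for spinal cord. VLMC-like cells lie at 133 to 968 CPM and the other cells at 0 to 214 CPM, and each line falls.

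The third comparison was between spinal cord and brain at P7. Over all cells, 6 members were tested and none was called by edgeR, as no gene of 4829 was (0.0%; 576 genes had an unadjusted p under 0.05). DESeq2 called 51 genes, among them 1 member, Cldn11 (log2 fold change 2.09, adjusted p = 0.00952). The log2 fold change was 2.07 ± 1.25 (SE) for Mbp (edgeR adjusted p = 0.559), 2.69 for Mag, 2.11 for Cldn11, 0.91 for Cnp and 0.55 for Ugt8a. Cldn11 did not overlap between regions, as 9.05% of genes did not with spinal cord higher. Without chip 23, 399 of 5450 genes (7.32%, 4.17% higher in spinal cord) were called by the same edgeR test, among them 5 members, all higher in spinal cord. Mbp stood at 3508 to 5517 CPM in the 4 remaining spinal cord chips and at 713 and 1031 CPM in brain, a log2 fold change of 2.40 ± 0.25 (edgeR adjusted p = 1.07e-05). Cnp stood at 1588 to 1997 CPM against 739 and 791 CPM (1.22 ± 0.20, edgeR adjusted p = 0.00132). Cldn11 stood at 568.1 to 1489 CPM against 112 and 275 CPM (2.26 ± 0.42, edgeR adjusted p = 0.00428) and Mag at 265 to 1424 CPM against 19.8 and 151 CPM (3.06 ± 0.72, edgeR adjusted p = 0.0172). None of these overlapped between regions, as was so for 33.9% of genes tested (17.5% with spinal cord higher). Mobp was the fifth (edgeR adjusted p = 0.0448), with 643 CPM on chip 10, at most 125 on the others and 0 in brain. It could pass the filter on low counts only through spinal cord, so its direction was fixed in advance. Of its 244 spinal cord molecules, 167 were in 2 cells of chip 10. Ugt8a, at 593 to 1620 CPM against 515 and 613 CPM, was not called (0.88 ± 0.30, edgeR adjusted p = 0.0857), and its ranges overlapped.

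**Figure D4:**
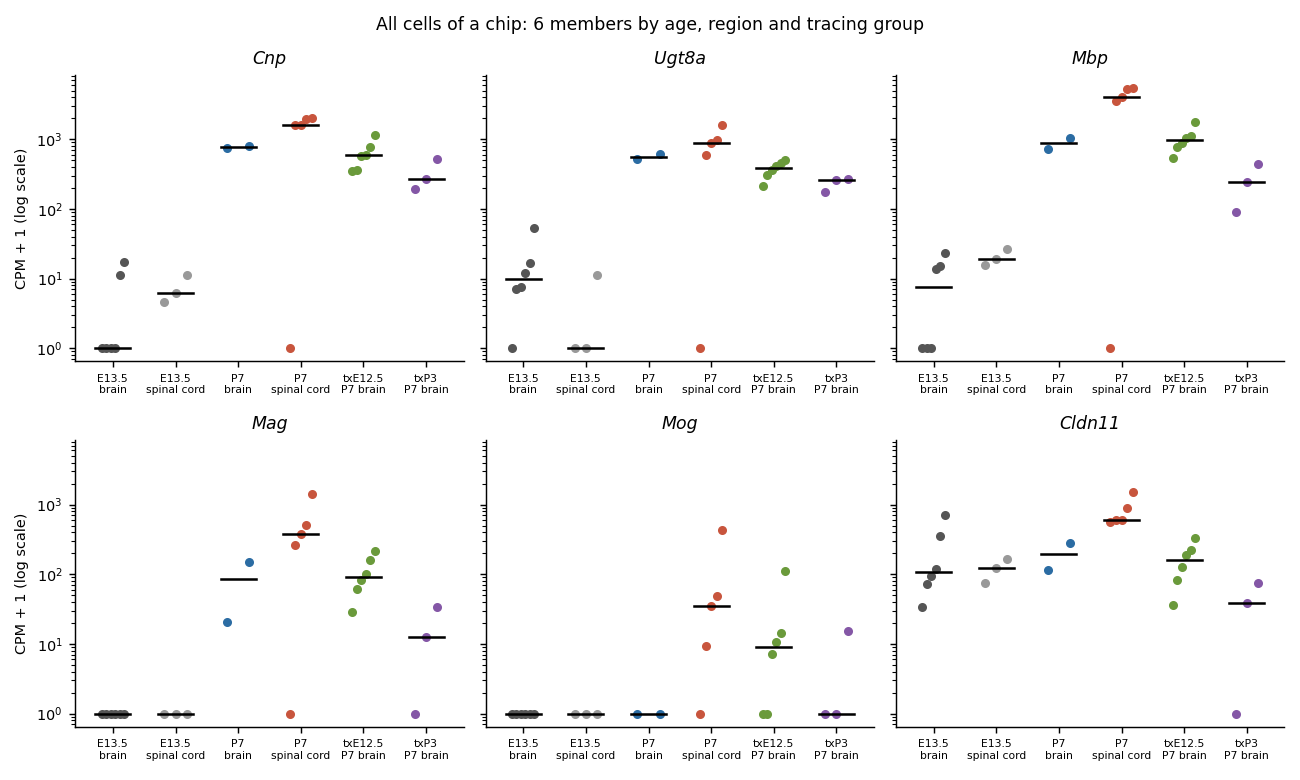
Level of 6 members over all cells (CPM + 1, log axis) by age, region and tracing group; each point is 1 chip and bars are medians. The spinal cord point at 1 for Cnp, Ugt8a, Mbp, Mag and Mog is chip 23. Cldn11 overlaps between E13.5 and P7 brain, and Mog is at 0 in both.

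More of the lineage had left the precursor stage in spinal cord. COP-like and NFOL-like cells made up 62.5%, 59.1%, 60.7% and 60.9% of lineage cells in the 4 spinal cord chips, and 34.5% and 27.9% in the 2 brain chips. The means were 60.8% ± 1.39 (SD, n = 4) and 31.2% ± 4.69 (SD, n = 2). The groups did not overlap, and the two-sided exact permutation test gave p = 0.133, the smallest value that 4 against 2 chips allow. The shares also depend on the GFP sort, whose part was not tested. Levels were therefore compared within stages next.

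Within COP-like cells Mbp was higher in spinal cord. It stood at 2552, 1521, 1637 and 2798 CPM in the spinal cord chips and at 853 and 459 CPM in the brain chips. The lowest spinal cord chip was above the higher brain chip, as was so for 15.3% of genes tested. Groups did not overlap, in either direction, for 28.2% of genes tested. The log2 fold change was 1.52 ± 0.32 (SE, edgeR adjusted p = 0.00227), and it was called under each of the 16 alternatives, between 0.97 and 2.47. It was the only one of the 4 members tested here that was called, where 1.87% of 2139 genes were called and 1.17% were called higher. Cnp (0.22, adjusted p = 0.721), Cldn11 (0.10, 0.962) and Ugt8a (-0.34, 0.676) were not called by the same edgeR test. The txE12.5 brain chips held 736 to 1862 CPM of Mbp in COP-like cells, which overlaps the 2 lower spinal cord chips. With the traced chips counted as brain, the log2 fold change was 0.97 (edgeR adjusted p = 0.0182).

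Within OPC-like cells no member was called by edgeR, among 2433 genes of which 4.77% were called (2.55% higher in spinal cord). Mbp stood at 718, 562, 456 and 769 CPM in spinal cord and at 301 and 242 CPM in brain, without overlap, with a log2 fold change of 1.06 ± 0.35 (adjusted p = 0.0707). The edgeR log2 fold change of Cnp was 0.70 (adjusted p = 0.275) and that of Ugt8a -0.95 (adjusted p = 0.221), both also without overlap. Groups did not overlap for 28.7% of all genes tested. Cells outside the lineage on the same chips held Mbp too: 449 CPM over 5 cells (7 molecules) in spinal cord chips other than 23, and 323 CPM over 7 cells (7 molecules) in brain. The part of free RNA in the values of OPC-like cells was not tested. Markers of Schwann cells, the myelin cells of peripheral nerve, were at 0 for all 6 genes in OPC-like and COP-like cells of spinal cord. Their sum was 27.0 CPM in brain OPC-like cells (5 of 6 detected), 18.1 CPM in brain COP-like cells (3 of 6) and 13.7 CPM in spinal cord NFOL-like cells (2 of 6).

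In NFOL-like cells, 4 spinal cord chips could be set beside only 1 brain chip of the same line and 3 txE12.5 chips, so values are given with no test. Mbp stood at 9156 to 12129 CPM in spinal cord (median 10464) and at 4528 to 7348 CPM in brain (median 5649). Cldn11 stood at 1359 to 3859 CPM against 647 to 1225 CPM. Both were without overlap, as were 7.51% of 2265 genes with a mean of at least 100 CPM (3.93% with spinal cord higher). Cnp (2965 to 3431 against 2159 to 3445 CPM), Ugt8a and Mag overlapped. The 56 spinal cord NFOL-like cells held a mean of 5.25 of the 9 genes and the 35 brain ones of all P7 brain and traced chips 4.66, at median depths of 6318 and 4058 molecules, whose part was not tested.

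**Figure D5:**
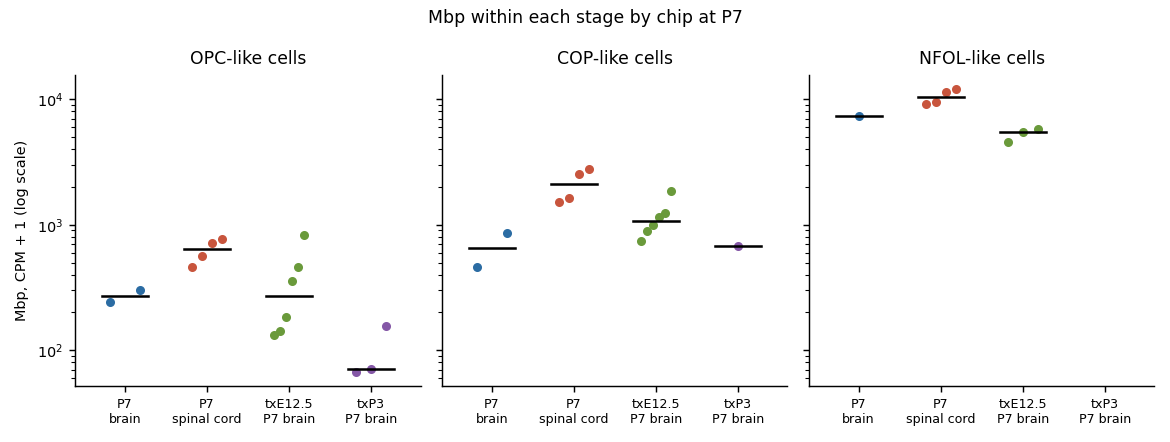
Mbp (CPM + 1, log axis) in OPC-like, COP-like and NFOL-like cells by group, for chips with at least 5 cells of the stage; each point is 1 chip and bars are medians. Spinal cord chips lie at 1521 to 2798 CPM in COP-like cells, above the P7 brain chips at 459 and 853 CPM but not above every txE12.5 chip.

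The last comparison was between progeny traced from E12.5 and progeny traced from P3, both in P7 brain. Mbp was higher in the txE12.5 chips. It stood at 529 to 1772.4 CPM (median 964, n = 6) over all cells of the txE12.5 chips and at 88.3, 441 and 238 CPM in the txP3 chips, with no overlap, as was so for 3.77% of genes (1.47% with txE12.5 higher). The log2 fold change was 2.07 ± 0.41 (SE, edgeR adjusted p = 0.0303). It was the only one of the 5 members tested that was called, where 0.199% of 5019 genes were called (0.179% higher). The call was lost without chip 13 (adjusted p = 0.0759), chip 17 (0.0573) or chip 18 (0.358), by the same edgeR test. Mag stood at 27.9 to 214 CPM (median 89.6) against 0, 33.2 and 11.4 CPM (2.90 ± 0.68, adjusted p = 0.0739). Cldn11 was at 34.8 to 335 CPM against 0, 38.0 and 73.8 CPM (adjusted p = 0.163). Cnp and Ugt8a differed by 1.01 and 0.76 on the log2 scale, with adjusted p of 0.373 and 0.423. Summed VLMC markers ranged from 244 to 4008 CPM in the txE12.5 chips and from 47.5 to 2044 CPM in the txP3 chips, and their part was not tested.

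The traced groups also differed in stages. COP-like and NFOL-like cells made up 13.2% to 34.3% of lineage cells in the txE12.5 chips (mean 26.4% ± 8.23, SD, n = 6) and 4.69%, 20.0% and 8.20% in the txP3 chips (11.0% ± 8.02, SD, n = 3). The difference was 15.4 percentage points (two-sided exact permutation test, p = 0.0476), and the ranges overlapped. It no longer passed without txE12.5 chip 13, 14, 15, 16 or 17 (exact permutation p = 0.0714 for each, where 0.0357 was the smallest value possible). Without txP3 chip 18, 19 or 20 the exact permutation p was 0.0714 to 0.143. There, 6 against 2 chips allow no value under 0.0714, so these 3 cases could not pass. Within OPC-like cells Mbp stood at 131 to 828 CPM in the txE12.5 chips and at 66.7, 154 and 69.8 CPM in the txP3 chips. The groups overlapped, unlike 2.27% of genes, and it was not called (1.82 ± 0.45, edgeR adjusted p = 0.265), in a comparison with 0.0567% of 3525 genes called. Cnp and Ugt8a differed by 0.40 and 0.38 (edgeR adjusted p = 1.00 for both). With at least 3 COP-like cells per chip, no gene of 415 was called by edgeR in that stage (30 had an unadjusted p under 0.05), and Mbp differed by 1.09 ± 0.38 (adjusted p = 0.368).

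The wider myelin program was read from 3 lists. Among other myelin proteins, 16 of 23 passed the filter at P7 against E13.5, and 14 were higher and 2 lower (edgeR, median log2 fold change 4.40 against -0.02 over all genes tested, of which 28.2% were called and 14.2% were called higher). Among the largest were Pllp (9.30 ± 0.71, SE) and Gjc3, an oligodendrocyte connexin (9.00 ± 0.93). Of the genes of myelin lipid synthesis, 21 of 23 tested were higher and none lower (median 1.45). The fatty acid elongase Elovl7 (7.89 ± 0.87), Fa2h, which hydroxylates the fatty acids of galactosylceramide (6.66 ± 0.77), and the cholesterol enzyme Dhcr7 (2.32 ± 0.40) led them. Of the regulators, 11 of 20 were higher and 3 lower (median 1.96), led by Myrf (5.66 ± 0.66), Sox10 (5.61 ± 0.63) and Nkx2-2 (5.60 ± 0.70). Within OPC-like and COP-like cells of P7, Cd9, a tetraspanin, was lower in spinal cord (log2 fold change -1.35 and -1.18, edgeR adjusted p = 0.00596 and 0.000195).

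By stage, among genes with at least 50 CPM, 7 of 15 other myelin proteins, 13 of 26 lipid genes and 5 of 17 regulators rose at each step, against 17.8% of all genes. Of the same regulators, 6 fell at each step, as did 1 of the other myelin proteins and 3 of the lipid genes. The share of all genes that fell at each step was not counted, so these numbers have no comparison. Cd9 was at 1403, 4275 and 2290 CPM (medians over chips) in OPC-like, COP-like and NFOL-like cells, and Pllp at 687, 1094 and 779 CPM. Sox10 was at 580, 663 and 600.4 CPM, nearly level across the stages, while Myrf was at 40.4, 207 and 450.5 CPM. Fa2h, which acts with Ugt8a on the same lipid, was at 39.1, 175 and 261 CPM.

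Outside the set, the genes whose levels over 36 sums (each 1 stage of 1 chip) were most like the mean of the 9 members included Nfasc (Pearson r = 0.87), Elovl7 (0.85), 9630013A20Rik (0.82) and Srcin1 (0.82), followed by Arpc1b, Plxnb3, Tmeff2, Enpp6 and Tmem108 (0.78 to 0.81). These are descriptions over sums that share libraries, among 2265 genes with a mean of at least 100 CPM. Enpp6, 9630013A20Rik and Tspan2 were among the markers used to name NFOL-like clusters. Their likeness to the members thus follows in part from how the stages were named. Members differed in their neighbours. Cnp was most like Sirt2 (0.96) and Enpp6 (0.94); Sirt2 was at 439, 2221 and 3802 CPM in the 3 stages. The genes most like Mbp included Nfasc (0.93) and its fellow member Cldn11 (0.92), and Mag was most like Nfasc (0.91), at 212, 581 and 4084 CPM in the 3 stages. Ugt8a was most like Elovl7 (0.85). Among the 2265 genes, Mal, Mobp and Opalin were most like Gsn or Tspan2 (0.62 to 0.69), values that rest on the NFOL-like sum of chip 10. Their likeness to each other was higher, at 0.93 for Mal with Opalin, 0.81 for Mal with Mobp and 0.75 for Mobp with Opalin. Mal, Mobp and Opalin were themselves not among the 2265 genes, and their values with each other share the same chip 10 sum.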

How the data were processed

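The deposited files hold counts of molecules per gene and well, made by the authors from STRT-seq reads with molecular identifiers; mm10 is named in the submitters' processing notes, and the aligner is not given in the sources used here. Spike-in and mitochondrial entries were left out. Cells needed at least 1000 molecules; doublets held at least 3 molecules from at least 2 marker genes of the oligodendrocyte lineage and of neurons or VLMCs. The 61 genes of the set, the other myelin proteins and the lipid list were held out of clustering (scanpy 1.11.5, 2000 variable genes, 30 components, 15 neighbours, Leiden resolution 1). Counts were summed per chip over all cells (at least 10 cells) or over a stage (at least 5) and tested with edgeR 4.0.16 (TMM, filterByExpr, quasi-likelihood, Benjamini-Hochberg, threshold 0.05); DESeq2 1.42.0 was an alternative. The script was tested on simulated data. Depth is given per chip and stage in the text; intervals are 95% Wilson intervals. The members and lists were chosen with earlier results of these data known. Named genes were the 9 members, up to 3 genes with the largest absolute log2 fold change past the threshold per list and comparison, and the 10 genes most like the mean of the members (3 for each member), by Pearson correlation of log2(CPM + 50); Cd9, Pllp, Sox10, Myrf, Fa2h, Nfasc and Sirt2 also have stage values, chosen after these were seen. One gene that this rule names is not reported here. Stage comparisons carry no test because stages come from the same cells. COP-like cells of the traced groups could not be fitted at 5 cells per chip, since only 1 txP3 chip had them.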

Additional observations from a re-analysis of the deposited data

Results flagged for a closer look

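Of 60 groups of 4 to 10 chips checked for a chip far from the others, 17 had one. The limit used lets through about 1 in 20 groups by chance for normally spread values; these are counts of few molecules, and in 4 of the 17 the nearest other chip was at 0. 9 of them are chip 10 of P7 spinal cord, which was highest over all cells for Mog (430 CPM, nearest other chip 46.9), Mal (1056 CPM, 55.9), Mobp (643 CPM, 125) and Opalin (48.2 CPM, 0). It was also highest in NFOL-like cells for Mog (1169 CPM), Mal (2890 CPM), Mobp (1758 CPM), Opalin (133 CPM) and Ugt8a (3802 CPM, nearest other chip 1942). Among the txE12.5 chips, chip 17 was highest over all cells for Mog (112 CPM, 15 molecules), Mal (44.7 CPM, 6 molecules) and Mobp (149 CPM, 20 molecules), and in OPC-like cells for Mog (106 CPM) and Mobp (317 CPM). Chip 15 was highest for Cldn11 in COP-like cells (310.3 CPM, 9 molecules). Ugt8a on E13.5 brain chip 24 was 51.7 CPM, from 5 molecules. Cnp on chip 23 was 0 CPM, with 1588 CPM on the next spinal cord chip.

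Chip 9, which entered no comparison, held 15.1 CPM of Mbp (11 molecules), 8.24 CPM of Cnp (6 molecules), 9.61 CPM of Ugt8a (7 molecules) and 110 CPM of Cldn11 (80 molecules), and no molecule of Mag, Mog, Mal, Mobp or Opalin.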

How the results depend on the processing

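No paired analysis was possible because the chip numbers in the titles are unique, so no 2 groups share one. The number of members called was 4 at P7 against E13.5 and 9 with no filter on low counts. For region over all cells it was 0, with 1 under DESeq2 and 3 with traced chips added to the brain. For region in OPC-like cells it was 0, with 1 under DESeq2, 1 at 2000 molecules per cell and 2 with traced chips added. For tracing over all cells it was 1, with 2 under DESeq2, 4 with no filter, 0 at 2000 molecules per cell and 2 with doublets kept; in OPC-like cells it was 0, with 1 with no filter. Leaving out 1 chip at a time gave 4 to 6 members by age, 0 to 5 by region over all cells, 0 by region in OPC-like cells, 1 in COP-like cells, 0 to 3 by tracing (0 without chip 13, 17 or 18, 2 without chip 20 and 3 without chip 5) and 0 by tracing in OPC-like cells. The share difference by region was 26.2 to 32.9 points when 1 chip was left out, and 37.8 points (exact permutation p = 0.00147) with traced chips added. By tracing it was 12.3 to 19.9 points when 1 chip was left out, 20.2 at 2000 molecules per cell (p = 0.0952), 10.8 with doublets kept (p = 0.190) and 12.8 with clusters made from all genes (p = 0.119), all exact permutation tests. Changes of sign, none of them called, were Cldn11 by age in brain chips alone (-0.024) and, in COP-like cells by region, Cldn11 without chip 21 (-0.63) and with clusters made from all genes (-0.0019), and Ugt8a without chip 21 (0.17) and at Leiden resolution 0.5 (0.68). Leaving out 1 chip gave -0.63 to 1.15 for Cldn11 and -0.46 to 0.17 for Ugt8a in that comparison. The cause of these changes was not tested. Over all genes, age called 1552, with 2403 with no filter and 775 in brain chips alone. Region over all cells called 0, with 51 under DESeq2, 16 with no filter, 399 without chip 23 and 431 with traced chips added. In OPC-like cells region called 116, with 42 without cycling cells and 305 with traced chips added, and in COP-like cells 40, with 24 with no filter and 64 at Leiden resolution 2. Tracing called 10, with 32 under DESeq2, 155 with no filter, 2 at 2000 molecules, 40 with doublets kept and 86 without chip 5, and in OPC-like cells 2, with 12 with no filter and 0 under DESeq2. Other values for single members kept their side of the threshold, or for onset moved by less than the SD between chips, in 470 cases, passed the threshold in 28 and lost it in 4. Leaving out 1 chip, region called 51 to 121 genes in OPC-like and 21 to 44 in COP-like cells, and tracing 0 (without chip 18) to 86 over all cells and 0 to 4 in OPC-like cells. At Leiden resolution 0.5 no cluster was NFOL-like, so onset had no value there. Depth limits Mog, Mobp, Mal and Opalin most.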
